A study of Drosophila melanogaster with 2 samples.

Results

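The genes of Dpp signalling examined here were dpp (ligand), sog (extracellular antagonist), tkv, sax and put (receptors), Mad, Med and Dad (Smads), and shn and brk (nuclear cofactors). These 10 genes of 13945 protein-coding genes were named by symbol, and a peak was assigned to a gene when its summit, the base of highest signal, lay in the annotated span of the gene or within 2 kb of it. The peaks came from chromatin immunoprecipitation sequencing (ChIP-seq) of E(spl)mβ-HLH, a basic helix-loop-helix-Orange repressor whose gene responds to Notch. The chromatin was from whole Drosophila melanogaster embryos of both sexes, 0 to 24 h old, of a transgenic line that carries the factor fused at its C terminus to GFP. There was 1 group of 2 biological replicates, numbered 1 and 3, and 0 control samples were used here. The promoter that drives the tagged factor is not given in the sources used here, and in whole embryos the cell type behind a peak cannot be told. The labels conflict: an input control is what the description text names, while the assay title and antibody field name an immunoprecipitation of the factor, as which both samples were taken here. The strongest pooled peak of all lay 101 bp upstream of the tagged gene itself, E(spl)mbeta-HLH, with a signal of 5401; it ranked 1 in replicate 1 (3208) and 3 in replicate 3 (2222).

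Dpp is a secreted bone morphogenetic protein (BMP) that patterns the dorsal side of the fly embryo and, later, many tissues. It binds a complex of type I receptors (tkv, sax) and the type II receptor put, and this receptor complex phosphorylates the Smad protein Mad. Phosphorylated Mad enters the nucleus with its partner Med, where the zinc finger protein shn joins them to silence brk, itself a repressor of Dpp target genes. Sog holds BMP ligands outside the cell, and Dad is an inhibitory Smad that is induced by the pathway and feeds back on it.

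Peaks in the list that passed the authors' irreproducible discovery rate (IDR) procedure are called reproducible here. That list equals the 5744 strongest peaks of the pooled replicates, so the word does not mean like ranks in both replicates. Of its peaks, 98.5% overlapped a listed peak in both replicates. The signal is the authors' value for each peak, without units, and the rank is its position by signal in its own list, with 1 the strongest. Reproducible signals ranged from 183.6 to 5401, with a median of 293.5. Of the 10 genes, 9 had a reproducible summit, while 39.3% of all protein-coding genes did. The share grew with gene length and was 33.9% of genes under 5 kb, 52.9% of those from 5 to 20 kb and 62.2% of those over 20 kb. The pathway genes in these classes with a summit were 3 of 3 (sax, Med and brk), 3 of 3 (put, Mad and Dad) and 3 of 4 (sog, tkv and shn, but not dpp). In all, 36 reproducible summits were assigned to the 9 genes, and shn alone held 18 of them, or 50%. The median signal of the 36 was 306.0, close to that of the whole list, and 19 lay above the list's median.

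The roles differed in how many summits they held and how strong these were. The ligand had 0. The antagonist sog had 3, between 189.2 and 249.6, all below the list's median. The 3 receptors had 5 between 199.6 and 303.7, with a median of 252.1. The 3 Smads had 8 between 196.0 and 1049, with a median of 377.3. Only 3 of these 8, all at Dad, had an own start as the nearest. The peak of 1049 lay beyond the 3′ end of Med, 1 bp from the start of Mnat9. The 2 nuclear cofactors had 20 between 187.2 and 2597, with a median of 329.7, and 18 of them were at shn. Among the 1000 strongest peaks, which are 17.4% of the reproducible list, were 8 of the 36 (22.2%). They lay at 4 of the 10 genes, namely shn, Dad, Med and brk, against 11.1% of all protein-coding genes. For Med this was the peak at the start of Mnat9. These are values of single genes and peaks in 1 group, and no difference between roles was tested.

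**Figure D1:**
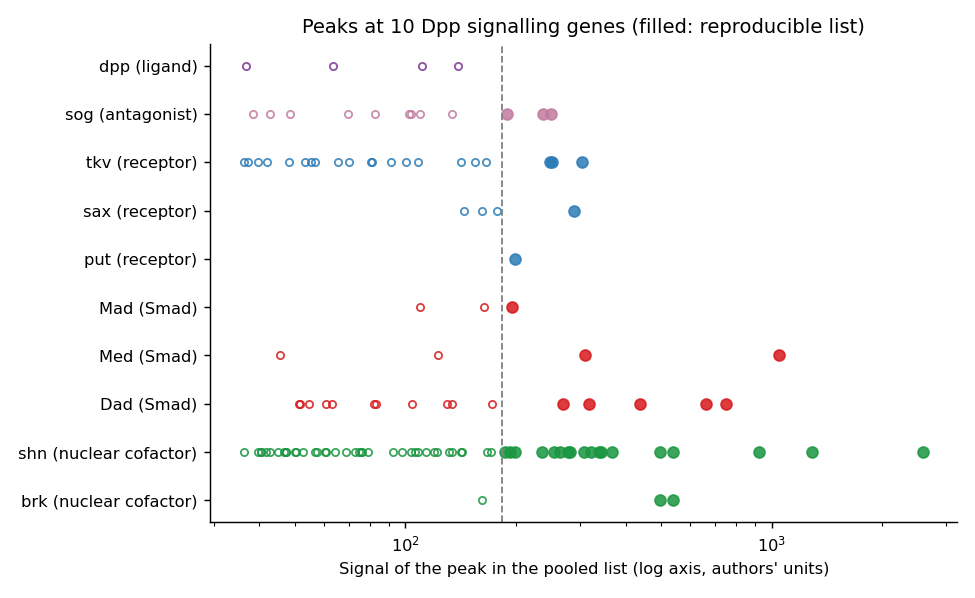
Signal of every pooled peak at the 10 genes, on a log axis in the authors' units; filled points are reproducible peaks, open points are pooled peaks below that list, and the dashed line is the lowest reproducible signal, 183.6. The peaks of dpp end at 139.2, those of shn reach 2597, and sog and the receptors stay at or below 303.7.

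The gene dpp (chromosome arm 2L, 2428372 to 2459823, plus strand, 31.5 kb, 4 alternative start sites) had no reproducible summit. The longer list from the pooled replicates, which holds 30000 peaks and reaches 59.5% of protein-coding genes, had a summit at all 10 genes and 4 at dpp, and all were within 3399 bp of the first start site, that of dpp-RA. The strongest lay 26 bp upstream of it, with a signal of 139.2 and rank 8128. The next, in the 5′ untranslated exon 233 bp downstream, had 111.2, and the others, in the first intron, had 63.6 and 36.8. The strongest summit of replicate 1 lay 24 bp downstream of the start with 103.7, rank 6331, and that of replicate 3 lay 389 bp downstream with 44.6, rank 12695. The start sites of dpp-RB, dpp-RC and dpp-RE, 21821 bp or more further along, had no peak within 1000 bp in any of the 4 lists. Among protein-coding genes over 20 kb, 37.8% likewise had no pooled summit that reached the reproducible range. The stretch at the first start is printed because it is the ligand's strongest site, without the transcribed part, 5′ to 3′ along the gene; RefSeq is the source of the sequences here and below (dm6 build).
dpp, first start site, chr2L:2428236-2428371, plus strand: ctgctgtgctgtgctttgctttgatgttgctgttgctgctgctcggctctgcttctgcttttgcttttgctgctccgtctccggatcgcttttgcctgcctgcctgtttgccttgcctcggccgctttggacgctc
The stretch has 57.4% G and C, and none of the words that are listed further on was found in it.

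The antagonist sog (arm X, 15603283 to 15633434, minus strand, 30.2 kb, 2 start sites) had 3 reproducible summits and 12 pooled ones. A summit 142 bp upstream of the first start site, that of sog-RB, had a signal of 189.2 and rank 5542, with 104.8 in replicate 1 and 81.5 in replicate 3. Further summits lay in an intron 3477 bp and 6997 bp downstream of the second start site. Their signals were 238.3 (150.9 and 92.1 in replicates 1 and 3) and 249.6 (155.7 and 94.5). The intronic peaks were thus higher than the promoter peak in the pooled list and in each replicate. The second start site, shared by sog-RA and sog-RE, had a pooled signal of only 103.8, rank 11274. Both contrasting sequences are shown, 110 bp on each side of the summit, with runs of GAGAGAG on either strand, which GAGA factor binds, and the E(spl) word CACNAG in capitals.
sog, promoter summit, chrX:15633466-15633686, minus strand: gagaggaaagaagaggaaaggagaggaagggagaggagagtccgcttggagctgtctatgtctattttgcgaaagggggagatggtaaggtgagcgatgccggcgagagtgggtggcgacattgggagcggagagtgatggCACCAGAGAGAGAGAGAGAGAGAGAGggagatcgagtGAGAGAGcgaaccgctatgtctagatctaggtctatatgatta
sog, strongest intronic summit, chrX:15619433-15619653, minus strand: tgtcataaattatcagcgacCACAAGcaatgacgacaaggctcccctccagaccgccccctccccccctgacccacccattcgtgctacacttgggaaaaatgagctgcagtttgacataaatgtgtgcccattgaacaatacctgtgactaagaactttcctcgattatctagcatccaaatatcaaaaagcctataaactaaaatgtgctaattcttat
The promoter stretch carried a long GA run whose first copy overlaps a CACNAG match, and the intronic stretch had a CACNAG match only.

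Among the receptors, tkv (arm 2L, 5219000 to 5271384, minus strand, 52.4 kb, 4 start sites), the main type I receptor for Dpp, had 3 reproducible and 21 pooled summits. The first, 92 bp upstream of the fourth start site (tkv-RD), lies in the second intron of the other 3 transcripts. Its signal was 247.7, with 111.8 in replicate 1 and 130.9 in replicate 3. The strongest lay in an intron 3668 bp downstream of the same start, with 303.7 and rank 2708, and 147.8 and 164.1 in the replicates. The last, 12390 bp downstream but nearer to the start of TpnC25D, had 252.1, with 156.9 and 91.2. The order of these peaks differed between the replicates: the last was highest in replicate 1 (rank 3408) and lowest in replicate 3 (rank 5217). The other start sites had little or nothing: tkv-RA had a pooled peak of 80.7 (rank 14478), tkv-RB a peak in replicate 1 only (95.1), and tkv-RC no peak in any list. The 27245 bp between the first and second start sites held no reproducible summit. The sequences of the promoter summit and the strongest summit are shown with 3 words in capitals, on either strand. These are the E(spl) word CACGCG, the GAGA factor word GAGAGAG and GGCGCT, a GC-rich word of Mad and brk type. The promoter sequence is printed without the transcribed part.
tkv, summit at the start of tkv-RD, chr2L:5237363-5237564, minus strand: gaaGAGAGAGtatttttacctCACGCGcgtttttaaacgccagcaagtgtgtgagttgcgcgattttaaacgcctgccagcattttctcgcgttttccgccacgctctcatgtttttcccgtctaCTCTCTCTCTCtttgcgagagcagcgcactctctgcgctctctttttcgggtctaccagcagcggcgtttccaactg
tkv, strongest intronic summit, chr2L:5233584-5233804, minus strand: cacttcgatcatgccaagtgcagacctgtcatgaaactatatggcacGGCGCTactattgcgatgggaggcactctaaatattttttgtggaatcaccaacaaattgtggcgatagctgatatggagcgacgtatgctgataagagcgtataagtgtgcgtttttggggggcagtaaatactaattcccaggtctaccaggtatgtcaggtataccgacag
CACGCG is a word bound by repressors of the Hairy and E(spl) family, and it also lay within 100 bp of 8.10% of all reproducible summits.

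The 2 remaining receptor genes had a single reproducible summit each. For put (arm 3R, 14619030 to 14625703, minus strand, 6.7 kb, 1 start site), the type II receptor, it lay in the 5′ untranslated exon 35 bp from the start. Its signal was 199.6, rank 5146, with 117.6 in replicate 1 and 88.2 in replicate 3, and the genes CG7886 and His4r also lie within 2 kb. For sax (arm 2R, 7806484 to 7810067, plus strand, 3.6 kb, 2 start sites), the other type I receptor, it lay 908 bp upstream of the start but 10 bp from the start of the neighbour Nop17l. That peak had 289.3, rank 2927, with 165.8 and 134.7 in the replicates. A peak at the start of sax itself, 28 bp upstream, had 177.8 and rank 6024, just below the reproducible list, with 77.2 in replicate 1 and 106.0 in replicate 3. All 3 receptor genes therefore had a reproducible summit within 1000 bp of an own start, but that of sax is nearer to another gene.

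The signal-transducing Smads, Mad and Med, had no reproducible summit inside their own spans. Mad (arm 2L, 3146056 to 3159643, minus strand, 13.6 kb, 2 start sites) was assigned a peak 1142 bp beyond its 3′ end, 128 bp upstream of the start of toc. Its signal was 196.0, rank 5272, with 129.9 (rank 4607) in replicate 1 and 39.8 (rank 14352) in the nearest peak of replicate 3. ND-B14.5B also lies within 2 kb of it. The strongest replicate 3 peak assigned to Mad was another one, with 79.0 and rank 6368. In the first intron of Mad, 878 bp from the start of Mad-RA, the pooled list had a peak of 164.5, rank 6611, below the reproducible range, and the start of Mad-RB had none in any list. Med (arm 3R, 31611046 to 31615375, plus strand, 4.3 kb, 1 start site), the common partner Smad, lay between a pair of such peaks. A peak 1204 bp upstream, 27 bp from the start of CycG, had 309.8, rank 2610, with 173.8 and 122.9 in the replicates. A peak 786 bp downstream, 1 bp from the start of Mnat9, had 1049, rank 228, with 610.9 (rank 250) and 425.8 (rank 251). The genes pasha and CG1792 lie within 2 kb of the latter. The start of Med itself had a pooled signal of 122.7, rank 9398, in the 5′ untranslated exon. By its highest signal Med came next after shn among the 10 genes, with a peak that lies at a neighbour's start site.

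The inhibitory Smad Dad (arm 3R, 17054007 to 17070408, plus strand, 16.4 kb, 2 start sites) had 5 reproducible summits, which 3.28% of protein-coding genes of 5 to 20 kb matched or exceeded, and 16 pooled ones. The first lay 13 bp upstream of the start of Dad-RA, Dad-RC and Dad-RD, with 437.7 and rank 1369, and 255.9 and 179.5 in replicates 1 and 3. The start of Dad-RB, 890 bp further along, had its own pooled peak of 172.0, rank 6274, below the reproducible range. The other 4 summits lay in introns. A neighbouring pair 1566 and 1767 bp downstream of the second start had 663.6 (rank 635) and 316.9 (rank 2512), with 374.7 and 191.7 in replicate 1 and 294.3 and 149.1 in replicate 3. The strongest, 10518 bp downstream but nearer to the start of Ns1, had 750.1 and rank 500, with 495.0 (rank 413) and 251.6 (rank 799). The last, 13000 bp downstream and also nearer to the start of Ns1, had 270.2, with 150.2 and 143.5. The 2 highest intronic summits exceeded the promoter summit in the pooled list and in both replicates, and both replicates placed the last one lowest in the gene. In replicate 1 the summit at 10518 bp was the highest. Replicate 3 had a further peak of 295.9 (rank 572) inside the interval of that pooled peak, so its highest value there was close to the 294.3 at 1566 bp, and the order of these sites in replicate 3 depends on which peak is matched.

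The Dad sequences are printed because the intronic peaks carry a word of the pathway itself. Mad and Med are known to activate Dad through an element with the letters GGCGCCA, then 4 bases of any kind, then GNC, searched here on both strands. It was found in 3 of the 36 peaks, all at Dad, and in 0.4% of all reproducible peaks (23 of 5744). Because the element is already known from Dad, a match there could be foreseen, and these shares do not measure an enrichment. In Dad the element occurred at 17056360 to 17056373, in an interval that 2 overlapping peaks share, and at 17065368 to 17065381. The 3 peaks thus hold 2 separate matches. These lay 103 to 90 bp and 47 to 34 bp upstream of the summits at 1566 and 10518 bp. Capitals mark this element, the GAGA factor word GAGAGAG, the E(spl) word CACNAG, and GGCGCC and GGCGCT, GC-rich words of Mad and brk type. All are marked on either strand and can overlap each other. The promoter stretch is printed without the transcribed part, so the CACNAG match within 100 bp of that summit is not in it. The search for the element was added after the peaks had been seen, and a match of letters does not show binding.
Dad, promoter summit, chr3R:17053884-17054006, plus strand: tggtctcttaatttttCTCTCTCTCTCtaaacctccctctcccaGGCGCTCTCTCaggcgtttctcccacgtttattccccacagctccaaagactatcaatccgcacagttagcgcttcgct
Dad, intronic summit at 1566 bp, chr3R:17056353-17056573, plus strand: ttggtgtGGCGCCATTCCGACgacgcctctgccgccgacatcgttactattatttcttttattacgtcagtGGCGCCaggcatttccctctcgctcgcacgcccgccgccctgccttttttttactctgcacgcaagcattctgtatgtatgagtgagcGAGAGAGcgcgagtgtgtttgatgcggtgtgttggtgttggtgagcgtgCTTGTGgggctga
Dad, strongest intronic summit at 10518 bp, chr3R:17065305-17065525, plus strand: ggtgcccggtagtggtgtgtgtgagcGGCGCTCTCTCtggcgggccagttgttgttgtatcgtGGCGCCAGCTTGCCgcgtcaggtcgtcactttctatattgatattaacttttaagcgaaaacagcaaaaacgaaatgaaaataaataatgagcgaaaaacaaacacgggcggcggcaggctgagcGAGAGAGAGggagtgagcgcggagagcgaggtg
The silencer element, through which Mad, Med and shn are known to repress brk, was also sought on both strands and was in 0 of the 36 peaks and in 0.104% of all reproducible peaks.

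The nuclear repressor brk (arm X, 7307939 to 7311132, plus strand, 3.2 kb, 1 start site) had 2 reproducible summits, both upstream of its start. They lay 816 and 608 bp upstream, with signals of 539.0 (rank 923) and 495.4 (rank 1077). Replicate 1 had 370.5 (rank 706) and 338.8 (rank 812), and replicate 3 had 169.6 (rank 1749) and 141.2 (rank 2503). Both peaks therefore stood higher in the order of replicate 1. CG1677 lies within 2 kb of both, and brk has the nearest start. A weaker pooled peak 1919 bp upstream had 162.3, rank 6722. The sequences are shown for contrast with those of Dad: they have 33.0% and 29.9% G and C against 55.2% and 52.9% at the intronic Dad summits printed above, and none of the words searched, so no capitals.
brk, summit at 816 bp, chrX:7307013-7307233, plus strand: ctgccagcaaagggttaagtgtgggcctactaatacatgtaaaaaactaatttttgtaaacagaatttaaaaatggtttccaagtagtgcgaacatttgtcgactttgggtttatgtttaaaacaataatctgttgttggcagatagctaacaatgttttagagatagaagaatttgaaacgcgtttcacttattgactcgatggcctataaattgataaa
brk, summit at 608 bp, chrX:7307221-7307441, plus strand: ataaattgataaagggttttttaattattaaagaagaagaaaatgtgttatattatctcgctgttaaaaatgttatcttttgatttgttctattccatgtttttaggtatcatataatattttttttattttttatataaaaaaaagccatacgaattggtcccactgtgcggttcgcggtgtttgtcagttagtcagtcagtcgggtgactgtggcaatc
The stretches overlap, since the summits lie close together.

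The zinc finger gene shn (arm 2R, 11159086 to 11217394, plus strand, 58.3 kb, 5 start sites) had 18 reproducible and 56 pooled summits. Of all protein-coding genes, 0.0215% had as many reproducible summits or more, which is 3 genes, and of those over 20 kb 0.296%. The others were tara with 20 and Eip75B with 18. Per 10 kb of span and flanks, shn had 2.89 reproducible summits, tara 5.17 and Eip75B 1.53, against 0.36 over all genes above 20 kb. All 18 summits of shn lay in introns of at least 1 transcript: 8 in the first intron, 7 in the second, and 3 in either, depending on the transcript. Overlapping peaks were close together, and the 18 made 13 separate regions.

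The strongest summit lay 175 bp upstream of the second start site, that of shn-RD and shn-RF. Its signal was 2597, rank 15 of all reproducible peaks, with 1451 (rank 18) in replicate 1 and 1145 (rank 15) in replicate 3. CG13229 also has its span within 2 kb of this summit. The other 4 start sites had no reproducible summit within 1000 bp. Their pooled signals were 60.8 for shn-RE (rank 18915), 47.2 for shn-RA (23856), 134.5 for shn-RB (8477) and 131.4 for shn-RC (8714). The replicates differed at some of these: the start of shn-RC had rank 4352 in replicate 1 and 8258 in replicate 3, and that of shn-RB 18907 and 5417. The 5 start sites thus differed in pooled signal by more than an order of magnitude, with a single one high in both replicates.

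The remaining 17 summits of shn lay over 1000 bp from every own start, with a median of 308.4 and a lowest signal of 187.2. The highest of them were on the far side of the third start site. A summit 2594 bp downstream of it had 1292 (rank 149), with 710.8 (rank 166) and 579.6 (rank 128) in the replicates. A summit 1371 bp downstream, had 921.0 (rank 319), with 504.7 and 417.1. Both were high in both replicates, while the pooled signal at the start they followed was 47.2. The next were a summit 2562 bp downstream of the fifth start, with 536.6 (349.7 and 197.7), and a summit 3961 bp upstream of the third start, with 496.4 (310.9 and 191.5). Further along, a cluster of 7 summits 7359 to 1241 bp upstream of the start of shn-RB ran from 199.1 to 366.4.

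**Figure D2:**
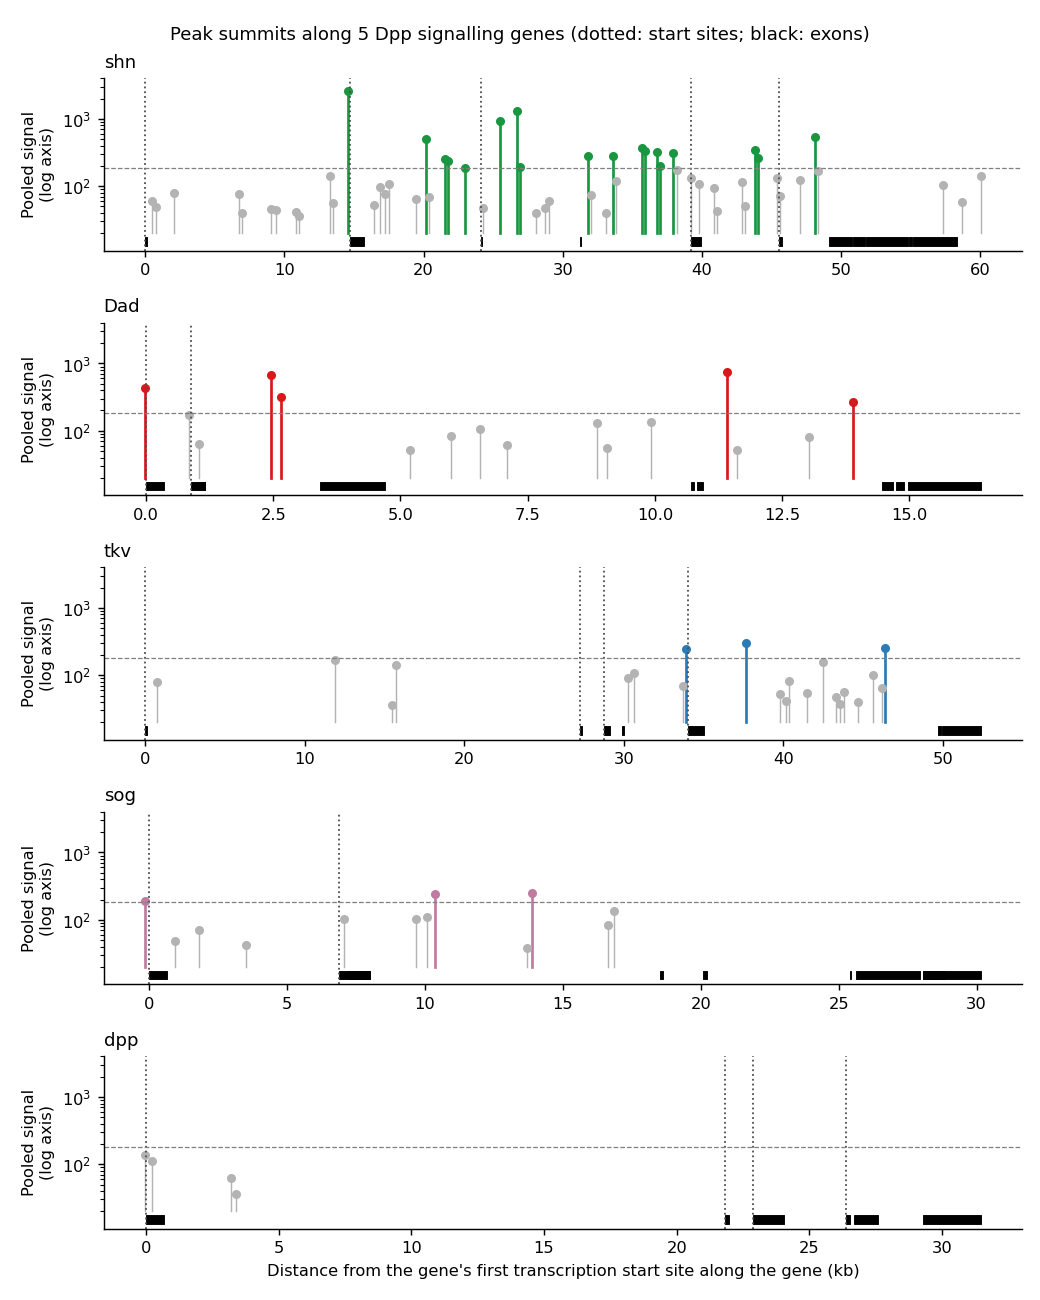
Pooled peak summits along shn, Dad, tkv, sog and dpp, with distance from the first start site in kb on the x axis and signal on a log y axis; coloured points are reproducible, grey are pooled only, dotted lines are start sites, black bars are exons, and the dashed line is 183.6. High summits of shn lie at the second start and beyond the third start, and dpp has grey points at its first start and in its first intron, none at the later starts.

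Ordered by the strongest summit of each protein-coding gene, shn was number 27. Just above it were jp and brwl, which share a peak of 2610, and just below CG13229, which shares the peak of shn, and Pc, with 2527. The peak assigned to Pc lay 13450 bp from the nearest start of Pc but 88 bp from that of CG11309. Both CG11309 and CG7632 share it. Likeness here means the signal of the highest peak in the pooled list, and the 4 neighbours had 1 to 5 reproducible summits each against 18 at shn. Their signals differ little, and the shn peak itself moved from rank 15 to rank 18 between the replicate lists, so the order among them is not firm.

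**Figure D3:**
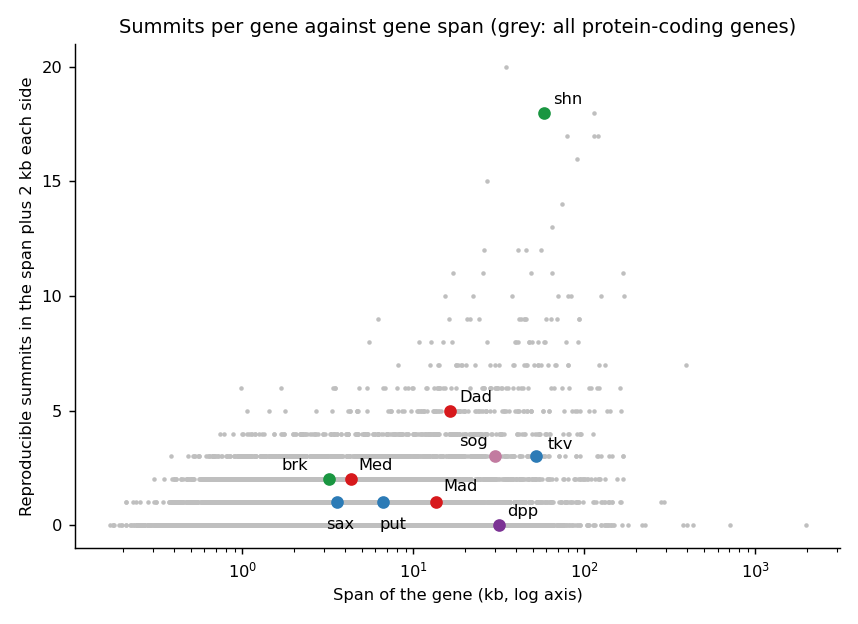
Number of reproducible summits per protein-coding gene (y axis, span plus 2 kb on each side) against the span in kb (log x axis); grey points are all genes and coloured points the 10 pathway genes. shn with 18 stands near the top, Dad with 5 among the higher genes of its length, and dpp at 0.

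Where the summits lay relative to the genes' own starts can be set against all genes. Of the 36 summits, 8 (22.2%) were within 1000 bp of an own start, 25 were inside the span but further from every own start, and 3 were outside the span and further away. Over all pairs of a gene and a reproducible peak, 50.7% were within 1000 bp of an own start, and 38.6% at genes over 20 kb. Without shn the share was 38.9%, which is 7 of 18 summits. Counted by gene, 7 of 10 had a summit near an own start (background 27.9%), and 4 of 10, namely sog, tkv, Dad and shn, had one deeper inside (background 6.90%). That last background rises with length, from 1.03% for genes under 5 kb to 17.0% for genes of 5 to 20 kb and 42.7% for those over 20 kb, where 0 of 3, 1 of 3 and 3 of 4 pathway genes had such a summit. For 6 genes (sog, tkv, put, Dad, shn and brk) at least 1 summit had the gene's own start as the nearest of all, against 23.4% of genes. For sax, Mad and Med the nearest starts were those of Nop17l, toc, CycG and Mnat9. The Dad summits 10518 and 13000 bp from an own start were nearest to that of Ns1, 7260 and 4778 bp away. The tkv summit 12390 bp from an own start was nearest to that of TpnC25D, 6718 bp away. Which gene a peak serves was not tested.

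The 10 genes have 24 annotated start sites. A reproducible summit lay within 1000 bp of 8 of them, counting both starts of Dad, which share a peak; a further 10 had a pooled peak only, and 6 had no pooled peak. No list had any peak at 5, the last 3 starts of dpp, the start of tkv-RC and that of Mad-RB. In tkv and shn 1 start each had a reproducible peak and the others did not, and in sog it was the first start of 2. The reproducible start was thus the most downstream of 4 in tkv and the second of 5 in shn.

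**Figure D4:**
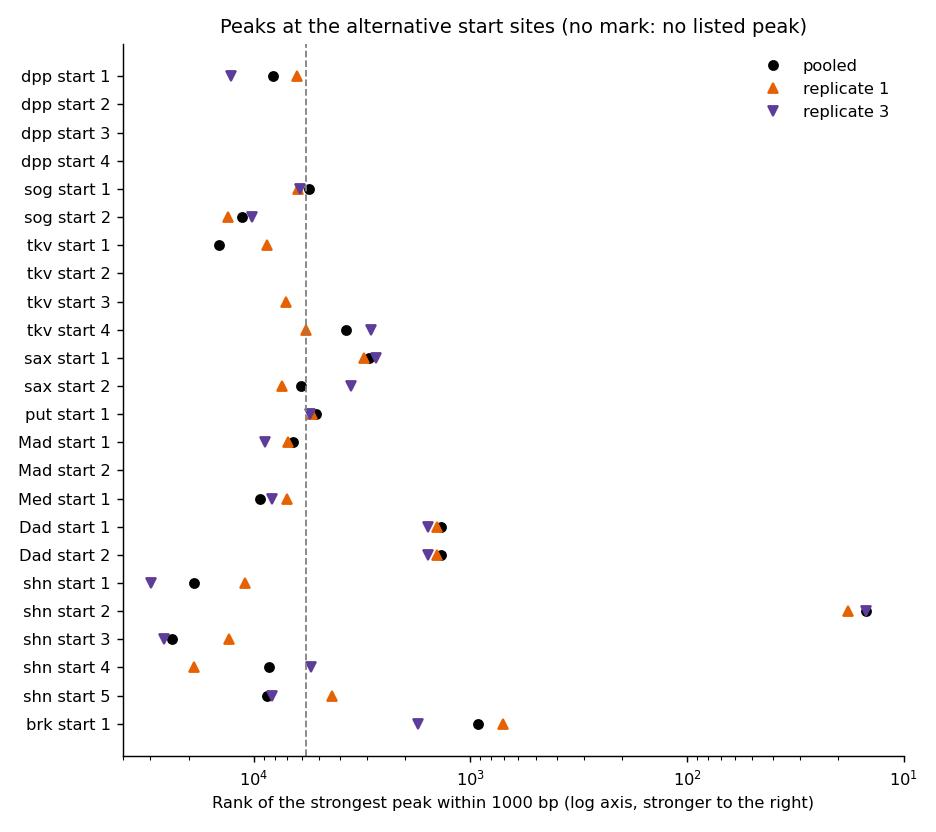
Rank of the strongest peak within 1000 bp of each of the 24 start sites in the pooled, replicate 1 and replicate 3 lists, on a log axis with stronger ranks to the right; the dashed line is rank 5744, the length of the reproducible list, and an absent mark means no listed peak. The second start of shn is near rank 15 in all 3 lists, and the dpp starts after the first are empty.

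The replicates can be compared peak by peak, although their signals are not on a common scale. All 36 reproducible peaks overlapped a listed peak in both replicates, as did 98.5% of the whole reproducible list. Summits within 100 bp in both replicates were found for 28 (77.8%), against 92.7% of the whole list. For 31 of the 36 the replicate peak with the nearest summit was among the 5744 strongest in both, and for 33 (91.7%) some overlapping peak was, against 79.4% of the whole list. The ratio of the worse to the better replicate rank had a median of 1.48, against 1.4 over the whole list, and ranged from 1.00 (the peak at Mnat9, next to Med) to 4.66 (in shn). It exceeded 2 for 9 peaks (25.0%), against 19.7% of all. Replicate 1 ranked 17 higher and replicate 3 19. Peaks at brk stood higher in replicate 1, and at tkv the first 2 summits stood higher in replicate 3, so neither replicate was higher throughout. Overlapping peaks in shn shared a replicate peak in some cases, so these 36 values are not independent.

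**Figure D5:**
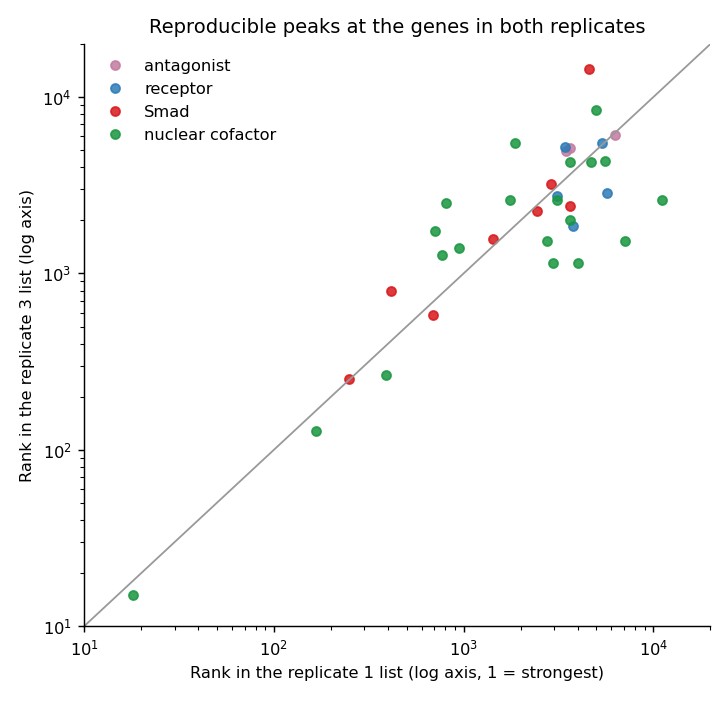
Rank of each of the 36 reproducible peaks in replicate 1 (x axis) and replicate 3 (y axis), both on log axes with 1 the strongest, coloured by role; the line marks equal ranks. The strongest shn peak (18 and 15) and the peak next to Med (250 and 251) lie near the line, and the Mad peak (4607 and 14352) lies far above it.

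Short words were counted on both strands within 100 bp of the summits. Words linked to the Hairy and E(spl) family were counted first: CACGTG was at 0 of 36 summits (4.07% of all), CACGCG at 2 (5.56% against 8.10%), in tkv and Dad, and CACNAG at 9 (25.0% against 23.0%), in sog, Dad and shn. CAGCTG, an E-box of proneural proteins, was at 3 (8.33% against 12.1%), in tkv, Med and shn. The promoter words TATCGATA, of DREF, and GGTCACACT, of M1BP, were at 0 (3.80% and 2.04% of all). GAGAGAG, the letters bound by GAGA factor, was at 8 (22.2% against 6.46%), in sog, tkv, sax, Dad and shn. Within 50 bp it was at 2 (5.56% against 2.49%). The palindromic Smad word GTCTAGAC was at 0 (0.0870% of all). Of the GC-rich words of Mad and brk type, GGCGCC was at 3 (8.33% against 3.57%), all in Dad, and GGCGCT at 4 (11.1% against 7.38%), in tkv and Dad. GC content around the 36 summits had a median of 42.3%, against 39.8% for all, and neighbouring summits share bases. No difference in word frequency was tested, and a missing word says only that those letters are not in the window.

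Of 39 other genes of BMP and activin signalling listed for comparison, 17 (43.6%) had a reproducible summit, close to the background of 39.3%. By group these were 2 of 6 ligands, 2 of 2 receptors, 1 of 1 Smad, 3 of 9 extracellular modulators, 5 of 5 intracellular modulators and cofactors, and 4 of 16 targets. The strongest ligand gene was gbb, a BMP ligand that acts with Dpp, with 1860 (rank 53) at 1159 bp upstream, where eIF6 has the nearest start. The strongest receptor gene was babo, the activin type I receptor, with 701.0 near CG33199, and the Smad was Smox, the activin Smad, with 602.5 near CG17982. Among the modulators, the glypican gene dlp had 485.8 in an intron, where CG43121 has the nearest start, and the coactivator gene nej, the fly CBP, had 832.1. Among targets, ush, a cofactor of GATA proteins, had 13 summits and the strongest of any gene in the pathway, 4740 (rank 3), higher than the 2597 of shn. That summit lay in an intron 4838 bp from an own start of ush, and the nearest start of all was that of cbt. The groups were small, and no difference between them was tested.

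The limit of 2 kb left out some nearby summits. Just outside were peaks of 192.4 at 2062 bp from Med (nearest start CycG), 317.3 at 2308 bp from Dad (mRpS11), 532.1 at 2346 bp from sax (puml) and 232.8 at 2626 bp from shn (Syx6). Just inside, the outermost were those of Med at 1204 bp (309.8) and Mad at 1142 bp (196.0). Those just outside were thus also nearest to starts of other genes.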

How the data were processed

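Peaks are those the authors deposited as 4 lists on the dm6 build (narrowPeak format): 30000 peaks each for replicate 1, replicate 3 and the pooled replicates, and 5744 reproducible peaks, whose rows equal the 5744 strongest pooled rows. Per the labels, sonication gave fragments of 200 to 800 bp. The sources used here do not name the caller, the aligner or the IDR threshold. The deposited signal (column 7) was used as given and ranked within a list, because lists are not on a common scale. The deposited −log10 q-value is capped at 4.09 and was not used for ranking. The deposited summit offset placed the summit, and 4 that ran past the peak end were moved to that end. The lists hold no read counts, so depth is unknown and no interval is given. Genes and start sites are from the Ensembl release 115 annotation in dm6 coordinates and sequence from the RefSeq copy of the assembly. A replicate value is that of the overlapping peak with the nearest summit. Scripts ran in Python 3.11.15 with matplotlib 3.10.9 and were tested on simulated peaks. The rule for named genes took all 10 genes, the strongest of each other group, genes sharing or nearest to a summit, and the 2 genes on each side of shn in signal order. The genes, lists and words were chosen with earlier results of these data known. With 1 group and no control sample, no test was run.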

Additional observations from a re-analysis of the deposited data

How the results depend on the processing

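The count of 9 genes with a reproducible summit was 5 with no flank and 4 with the 1000 strongest peaks, where sog, tkv, sax, put and Mad dropped out; the share of all protein-coding genes fell from 39.3% to 15.9% and 11.1%. The 36 summits became 8 with those strongest peaks and 18 without shn, an alternative chosen after seeing the data, which also moved the share near an own start from 22.2% to 38.9%. The 17 other pathway genes became 9 with no flank, 7 with the strongest peaks and 10 when the nearest start had to be the gene's own (23.1%, 17.9% and 25.6% of them, against 15.9%, 11.1% and 23.4% of all genes). With each replicate used alone, 8 to 9 genes, 37 to 37 summits and 15 to 16 other genes had peaks. Mad was lost without replicate 1, where its strongest peak ranked 6368, outside the 5744 strongest. The share near an own start with each replicate alone was 24.3% to 27%, and the top peak of shn ranked 15 to 18. Without replicate 1 the strongest peaks of dpp and brk ranked 12695 and 1749. Peaks shared by both replicates numbered 25 at 50% overlap (69.4%, against 69.8% of all reproducible peaks), 28 with summits within 100 bp (77.8% against 92.7%) and 33 with any overlapping peak among the 5744 strongest (91.7% against 79.4%). Some values changed sides relative to the whole list. CACNAG, at 25.0% against 23.0%, was at 5.56% against 11.7% within 50 bp and 55.6% against 47.8% within 250 bp. GGCGCT, at 11.1% against 7.38%, was at 0 against 3.69% and 16.7% against 17.6%. The other pathway genes, at 43.6% against 39.3%, were at 38.5% against 39.1% without replicate 3. The cause of these changes was not tested. No paired analysis was possible because there was 1 group and no test. The lists give no depth, so a missing peak does not show that binding was absent.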
